A study of Homo sapiens with 16 samples.

Results

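The heat-shock protein genes HSPA1A, HSPA1B, HSPA8, HSPH1, HSP90AA1, HSPB1, HSPD1, HSPE1, DNAJB1 and BAG3 were followed in LX-2, a human cell line derived from hepatic stellate cells that resembles their activated, myofibroblastic state. These 10 genes were chosen by name among 19970 protein-coding genes of chromosomes 1 to 22 and X. LX-2 cells received DMSO, the vehicle, in the control arm or 50 µM OSMI-1 in the other arm, both for 24 h. This compound blocks O-GlcNAc transferase, the enzyme that places the sugar O-GlcNAc on nuclear and cytosolic proteins, and is called OGTi here. Both arms share the same line, grown in medium with serum, and no other allele or agent is named, so all values come from a single cultured line without the other cell types of the liver. Acetylation of histone H3 at lysine 27 (H3K27ac), which marks active promoters and enhancers, was measured by ChIP-seq in 4 biological replicates of each arm. The other 8 of the 16 samples, inputs and column purified chromatin, were not used here.

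The data are 2 lists of regions, 3507 that lost and 3623 that gained H3K27ac under OGTi. They give positions on hg38 and hold neither the size of the change nor a value per library, so that read depth, replicate spread and levels of H3K27ac are unknown and no test over replicates was possible. A gene absent from both lists may carry H3K27ac that did not change, H3K27ac whose change missed the threshold, or no H3K27ac, and these cannot be told apart. The identity of the cells could not be checked against markers, since the lists hold no expression values.

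Heat-shock proteins are molecular chaperones that hold, refold or hand over unfolded proteins. HSP70 proteins act in cycles of ATP binding and hydrolysis that J-domain proteins start and nucleotide exchange factors end, HSP90 proteins act on kinases and receptors, small heat-shock proteins hold unfolded clients, and the mitochondrial chaperonin encloses them in a chamber. Many of these genes are induced under stress by heat shock factor 1 (HSF1), which binds heat shock elements made of inverted repeats of a short GAA unit.

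The promoters are shown first because the elements that drive this response lie in them, while the listed regions at these genes lay elsewhere. The stretches were read on hg38 in the direction of transcription, and RefSeq lists 14 transcription starts for the 10 genes. A heat shock element was taken as 3 perfect units, GAANNTTCNNGAA or TTCNNGAANNTTC, and both strands were searched in the 250 bases before each start. It was present for 3 of the 10 genes, HSPA8, HSP90AA1 and HSPD1, compared with 0.49% of 15315 protein-coding genes with a RefSeq promoter. The HSPD1 element also lies upstream of HSPE1, which runs the other way. It falls just outside the 250 bases searched for HSPE1, chr2:197500129-197500378, so HSPE1 was not counted. The capitals mark the element, or the pair of overlapping elements in HSPD1.
HSPA8, −230 to −218, chr11:123062346-123062374, minus strand: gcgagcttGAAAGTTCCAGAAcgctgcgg
HSPA8, −55 to −43, chr11:123062171-123062199, minus strand: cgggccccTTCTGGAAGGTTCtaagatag
HSP90AA1, −88 to −76, chr14:102087112-102087140, minus strand: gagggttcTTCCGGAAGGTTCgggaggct
HSPD1, −245 to −228, chr2:197500062-197500091, minus strand: ggcattTTCTGGAAAGTTCTGGAAccgagc

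HSPA1A and HSPA1B, the stress-inducible HSP70 genes, held no perfect element of 3 units, but each held 1 pair of units, GAANNTTC, in capitals below. Their promoters are shown whole because they are near copies of each other, which bears on how reads from them can be placed. Over these 250 bases 235 positions were identical, 14 were mismatched and 2 fell in gaps.
HSPA1A, chr6:31815293-31815542, plus strand: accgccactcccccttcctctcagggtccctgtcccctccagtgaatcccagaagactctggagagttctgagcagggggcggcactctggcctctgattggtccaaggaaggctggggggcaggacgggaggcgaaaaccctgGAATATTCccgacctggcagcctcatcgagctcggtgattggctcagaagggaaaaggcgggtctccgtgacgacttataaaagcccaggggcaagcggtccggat
HSPA1B, chr6:31827488-31827737, plus strand: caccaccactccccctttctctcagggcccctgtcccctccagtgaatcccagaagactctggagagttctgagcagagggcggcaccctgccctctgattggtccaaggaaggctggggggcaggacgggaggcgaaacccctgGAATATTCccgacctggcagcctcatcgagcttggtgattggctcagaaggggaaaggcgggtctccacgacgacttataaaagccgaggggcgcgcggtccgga

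When 1 mismatch was allowed over the 9 fixed bases, 7 of the 10 genes held an element, against 5.77% of protein-coding genes. A pair of perfect units was also present for 7 of 10, against 13%. The GC box, GGGCGG, was found before 9 of the 10 genes (62.9% of all genes), the CCAAT box before 5 (40.6%) and the TATA box, TATAAA, before 2, HSPA1A and HSPA1B (11.9%). These matches describe the letters of the promoters and not the binding of any factor.

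To find whether H3K27ac changed near these genes, each listed region was given to a gene when it touched the gene body or lay within 100 kb of its annotated 5′ end. HSPA1A and HSPA1B had a gained region, BAG3 had lost regions, and the other 7 genes had neither. A gained region thus lay at 2 of 10 genes, compared with 30.6% of all protein-coding genes, and a lost region at 1 of 10, compared with 21.6%. A region of either list lay at 3 of 10 genes and at 45.0% of all genes. With 10 genes, 3 of which have a region, these shares are coarse and were not tested.

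At the 5′ ends themselves, within 2500 bp, no gained and no lost region lay at any of the 10 genes, while 6.41% of all protein-coding genes had a gained region there and 1.96% a lost one. The annotated 5′ end is that of the longest extent of a gene, and it can lie far from other starts, at 52.7 kb from a RefSeq start in HSP90AA1, 42.5 kb in DNAJB1 and 16.9 kb in HSPD1. From the 14 RefSeq starts the count was the same, with 0 of 10 genes having a region within 2500 bp.

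**Figure D1:**
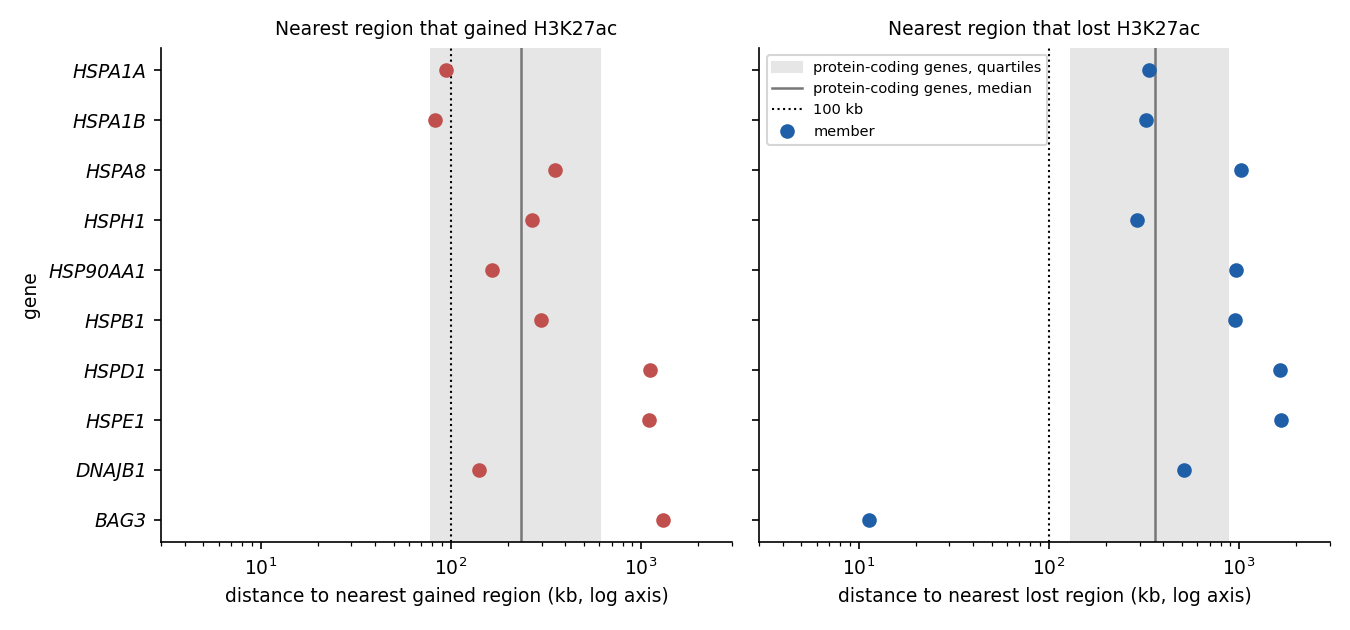
Distance from the 5′ end of each heat-shock protein gene (rows) to the nearest region that gained (left) or lost (right) H3K27ac under OGTi, in kb on a log axis, with the quartiles (grey band) and the median (line) of 19970 protein-coding genes. HSPA1A and HSPA1B lie inside the dotted 100 kb line on the left and BAG3 alone does on the right.

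The distance to the nearest region does not depend on the window. Its median over the 10 genes was 281 kb for gained regions (235 kb over all protein-coding genes) and 731 kb for lost regions (360 kb). The gained region was the nearer of both kinds for 9 of 10 genes, BAG3 being the exception, and for 59.8% of all genes. By their 5′ ends 4 of the 10 genes were nearer to a gained region than the median gene, and 4 were nearer to a lost one. In these counts HSPA1A and HSPA1B share their nearest regions, as do HSPD1 and HSPE1, so the 10 genes stand for 8 loci. The plot of nearest distances shows that the genes spread on both sides of the median, from 11.3 kb to 1660 kb.

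Among the HSP70 genes, HSPA1A (chr6:31815543-31817946) and HSPA1B (chr6:31827738-31830254) lie beside each other on the plus strand of chromosome 6 and shared a single gained region. This region, chr6:31910205-31911481, was 1277 bp wide and began 94.7 kb downstream of the 5′ end of HSPA1A and 82.5 kb downstream of that of HSPA1B. It lay in an intron of C2, a complement gene, and the nearest protein-coding 5′ end was that of ZBTB12, a zinc finger gene, at 8119 bp. Within 100 kb of the HSPA1A 5′ end there were 18 protein-coding 5′ ends, so the window alone does not tie the region to the HSP70 genes. HSPA1L, the testis HSP70 gene of the same cluster, took the same region at 94.9 kb. The nearest region that lost H3K27ac was 336 kb from HSPA1A and 324 kb from HSPA1B.

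The sequence of this region was poor in CpG, with an observed to expected ratio of 0.283 and a GC content of 43.5%, beside medians of 0.247 and 46.1% over all gained regions. It held no heat shock element. It held 4 matches to the AP-1 motif TGANTCA, bound by FOS and JUN proteins, and 3 to the TEAD motif CATTCC, bound by the partners of YAP and TAZ. A match to AP-1 was present in 53.6% and one to TEAD in 58.8% of all gained regions. One stretch is shown because an AP-1 match (capitals) lies shortly after a TEAD match, read here from the other strand as ggaatg.
C2 intron, chr6:31910376-31910422, plus strand: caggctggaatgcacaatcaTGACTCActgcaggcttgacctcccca

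The near identity of both genes limits what reads of 50 bases, the read length of these libraries, can show there. Over the first 2000 bases of the genes 98.6% of positions were identical. Of all 50-base windows within 2500 bp of the 5′ end, 61.9% were found only once on the primary chromosomes for HSPA1A and 61.0% for HSPA1B, and over the gene bodies 25% and 28.4%. For the other 8 genes this share around the 5′ end ran from 92.7% in HSPD1 to 99.5% in HSPH1. When all 455 sequences of hg38 were searched, which include 261 alternative haplotypes, no window of HSPA1A or HSPA1B was unique, and the share in the gained region fell to 4.07% from 80.3%. The sources used here do not give which of these sequences the reads were aligned to, and the part of unplaced reads in the absence of listed regions at the HSPA1A and HSPA1B promoters was not tested.

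**Figure D2:**
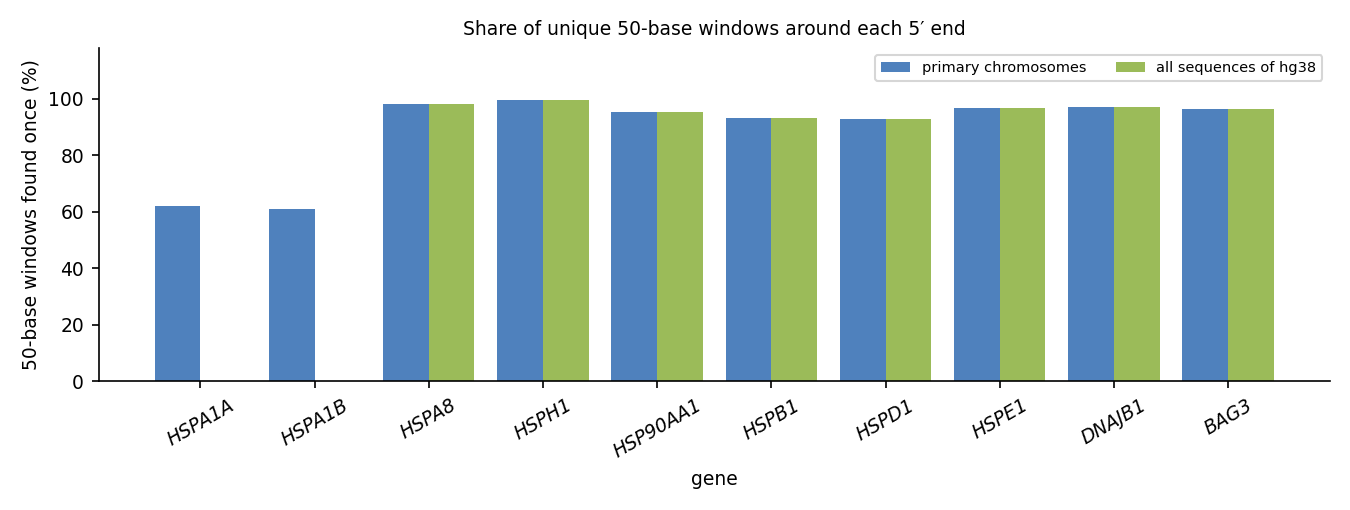
Share of 50-base windows, in percent, found exactly once in hg38 within 2500 bp of the 5′ end of each heat-shock protein gene, against the primary chromosomes (blue) and against all sequences with alternative haplotypes (green). HSPA1A and HSPA1B stand at 61.9% and 61.0% and then at 0, while the other 8 genes stay at or above 92.7% on both counts.

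HSPA8, the constitutive HSP70 gene (chr11:123057489-123063230), had no region in its window in either list. The nearest gained region was 352 kb away and the nearest lost region 1023 kb. Within 1000 kb there were 7 gained regions and 0 lost ones, while the median protein-coding gene had 3 gained and 2 lost regions. Its promoter, with 2 perfect heat shock elements, lies within 2500 bp of the 5′ end, where 98% of 50-base windows were unique.

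HSPH1, the HSP110 gene whose product exchanges nucleotides on HSP70 (chr13:31134973-31162388), had a gained region at 266 kb and a lost region at 291 kb as its nearest. HSP90AA1, the stress-inducible cytosolic HSP90 (chr14:102080742-102139699), had its nearest gained region at 165 kb and its nearest lost region at 969 kb. From the inner RefSeq start of HSP90AA1, the one that follows the heat shock element shown above, the nearest listed region was 113 kb away, just outside the window. HSPB1, the small heat-shock protein also called HSP27 (chr7:76302673-76304295), stood at 297 kb from a gained and 948 kb from a lost region.

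HSPD1 and HSPE1 encode HSP60 and HSP10, which form the mitochondrial chaperonin. They overlap head to head on chromosome 2 (chr2:197486584-197516737, minus strand, and chr2:197500140-197503449, plus strand), so they are 1 locus and share their surroundings. No region of either list lay within 1000 kb of them. The nearest gained region was 1116 kb from HSPD1 and 1099 kb from HSPE1, and the nearest lost region was 1643 kb and 1660 kb away. For the nearest region of either kind, HSPD1 lay at the 94.6th and HSPE1 at the 94.4th percentile of all protein-coding genes.

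DNAJB1, the J-domain protein also called HSP40 (chr19:14514769-14560391), had no region in its window, but this depended on the start used. From the annotated 5′ end the nearest gained region was at 140 kb. The same region, chr19:14418321-14419943 and 1623 bp wide, lay 98.0 kb from the RefSeq start at position 14517937, inside 100 kb. Within 1000 kb of the annotated 5′ end there were 6 gained and 5 lost regions.

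BAG3, which binds HSP70 and guides damaged proteins of the cytoskeleton to autophagy, was the one member with a listed region inside its gene body. It lies on the plus strand of chromosome 10 (chr10:119651380-119677819) and lost H3K27ac in 2 abutting regions of 2000 bp each, chr10:119662703-119664702 and chr10:119664703-119666702. Together they form a block of 4000 bp that starts 11323 bp and ends 15322 bp downstream of the 5′ end. The authors divided wide peaks into bins before the comparison, so that a single domain can be listed in 2 abutting pieces. By distance to a lost region BAG3 lay at the 3.86th percentile of all protein-coding genes.

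The block lay wholly in the first intron, which spans 17995 bp of the canonical transcript of 4 exons, and it touched no exon. The second annotated transcript start of BAG3 brings the first region to 6.09 kb, still outside 2500 bp. BAG3 itself had the nearest protein-coding 5′ end to both regions. No other listed region lay within 100 kb, and the next one, also lost, was 181 kb away. Within 1000 kb of BAG3 there were 5 lost regions, counting both regions of the block, and 0 gained ones. The nearest gained region was 1309 kb away.

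**Figure D3:**
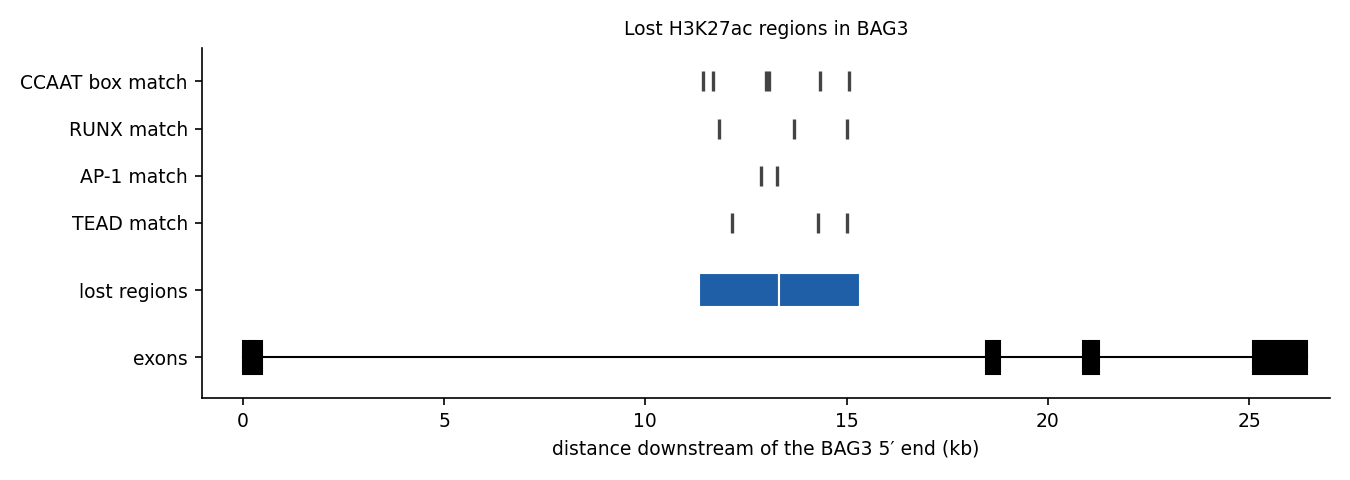
Map of BAG3 by distance downstream of its 5′ end in kb, with the exons of the canonical transcript (black), the 2 regions that lost H3K27ac (blue) and the motif matches found inside these regions (ticks; other stretches are not marked). The lost block runs from 11323 bp to 15322 bp, between the first and the second exon, and holds matches to TEAD, AP-1, RUNX and CCAAT motifs.

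Both regions were richer in GC and in CpG than the median lost region of the same width. The GC content was 49.6% in each region, beside a median of 44.8% over the 314 lost regions of 2000 bp. The CpG ratio was 0.373 in the first region and 0.294 in the second, beside a median of 0.189. Over the 1000 bases around the BAG3 5′ end the CpG ratio was 0.853.

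The stretches below are shown because they hold the AP-1 and TEAD matches (capitals) of the block, GGAATG being CATTCC on the other strand. The first region held 2 matches to AP-1 and 1 to TEAD, and the second held none to AP-1 and 2 to TEAD. The RUNX motif TGTGGT matched once in the first region and 2 times in the second, 1 of them overlapping the last TEAD match. TEAD was present in 82.2%, AP-1 in 64% and RUNX in 78% of the lost regions of 2000 bp, so these matches are common at this width.
BAG3, AP-1, chr10:119664232-119664278, plus strand: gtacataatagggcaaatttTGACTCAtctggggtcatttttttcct
BAG3, AP-1, chr10:119664640-119664686, plus strand: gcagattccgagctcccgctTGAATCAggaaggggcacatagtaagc
BAG3, TEAD, chr10:119663511-119663556, plus strand: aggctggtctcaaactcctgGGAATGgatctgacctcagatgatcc
BAG3, TEAD, chr10:119665648-119665693, plus strand: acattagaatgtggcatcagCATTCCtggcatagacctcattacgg
BAG3, TEAD, chr10:119666365-119666410, plus strand: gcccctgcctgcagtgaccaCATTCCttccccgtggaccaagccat

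Neither region held a perfect heat shock element, which was present in 3.50% of lost regions of this width. The first held 1 element with a single mismatch. The promoter of BAG3 held no such element in these letters either, but it held an AP-1 match from −19 to −13, the only one among the 10 genes (7.12% of all genes). It is shown whole, with that match in capitals, as the stretch that did not enter either list.
BAG3, chr10:119651130-119651379, plus strand: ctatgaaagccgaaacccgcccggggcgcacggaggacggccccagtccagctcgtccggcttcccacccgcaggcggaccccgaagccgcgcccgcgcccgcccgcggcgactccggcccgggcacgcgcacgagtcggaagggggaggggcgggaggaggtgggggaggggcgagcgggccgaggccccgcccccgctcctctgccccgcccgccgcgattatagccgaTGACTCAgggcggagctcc

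In the lost block 94.4% of 50-base windows in the first region and 84.1% in the second were found once in hg38, also with the alternative haplotypes included.

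To place the 10 genes among their partners, 87 other chaperone and heat shock response genes were listed by function. A gained region lay at 34 of them, a lost region at 19, both at 4 and neither at 38. The shares were 39.1% for gained and 21.8% for lost regions, beside 30.6% and 21.6% of all protein-coding genes. At the 5′ end itself 15 of the 87 had a gained region, which is 17.2% against 6.41% of all genes, and none had a lost region, against 1.96%. A CpG-rich 5′ end, with a ratio of at least 0.6 over 1000 bases, was present in 80.5% of the 87 genes and in 60.1% of all genes, and of all genes with such a 5′ end 9.16% had a gained region there. No test was made of these shares, since the list was written with earlier results of the data known.

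**Figure D4:**
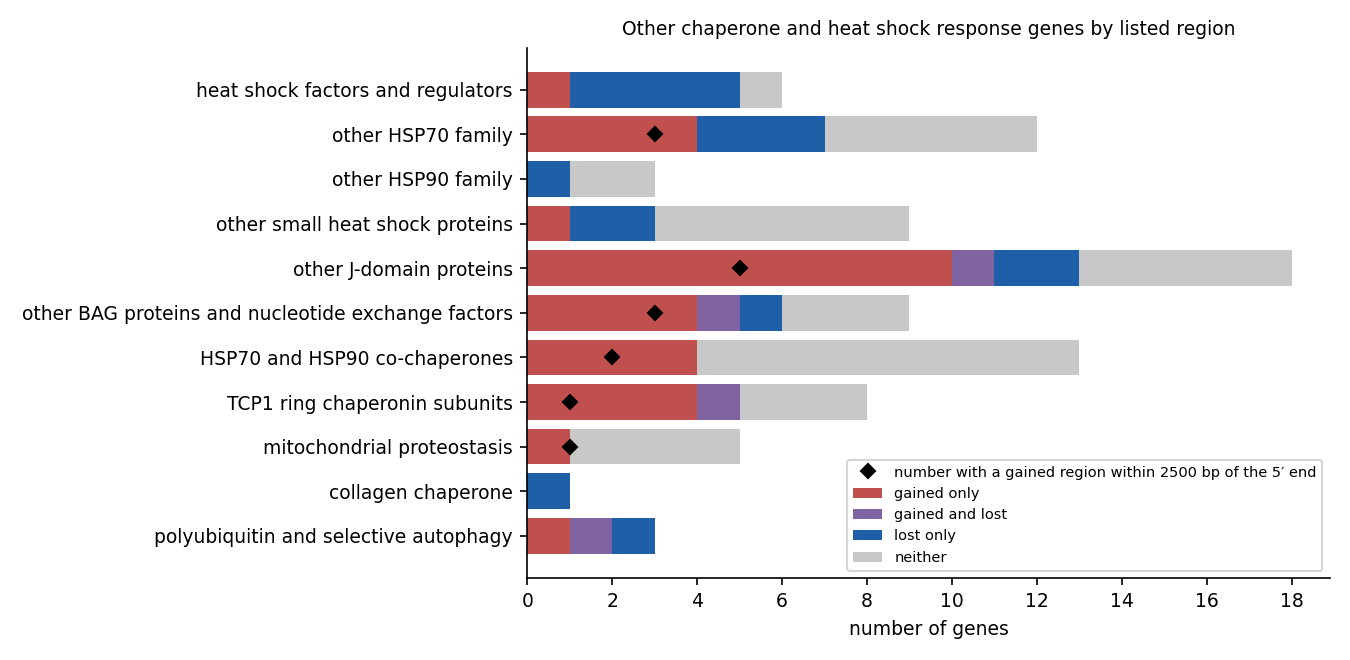
Number of other chaperone and heat shock response genes in each functional group (rows) with a gained region, a lost region, both or neither in the gene body or within 100 kb of the 5′ end. Diamonds mark how many genes of a group had a gained region within 2500 bp of the 5′ end, up to 5 of the 18 J-domain genes.

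Of 6 heat shock factors and regulators 4 had a lost region in the gene body or within 100 kb (21.6% of all protein-coding genes) and 1 had a gained one, but none had a region within 2500 bp of the 5′ end. HSF1 had 1 lost region at 16.1 kb from its 5′ end, in an intron of BOP1, with the 5′ end of SCX nearer, at 7664 bp. HSF4 had 2 lost regions, the nearer at 78.9 kb, and FHOD1 had the nearest 5′ end to both, at 1078 bp from the first and inside the second. HSF5 had 1 lost region at 36.5 kb, in an exon of SEPTIN4, with the 5′ end of MTMR4 nearer, at 7010 bp. HSF2BP, a gene named for its binding to HSF2, had 6 lost regions, all in its own introns and 49.3 kb to 72.0 kb from its 5′ end. The 5′ end of H2BC12L was nearer to all 6 regions, at 19976 bp to 43145 bp. Of these 4 abut, so that 3 separate blocks are left once they are joined, fewer than the 5 separate lost regions at HSPA2.

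In the HSP70 family 4 of 12 other genes had a gained region and 3 a lost one, beside 30.6% and 21.6% of all protein-coding genes. HSPA5, the endoplasmic reticulum HSP70 also called BiP, had 2 abutting gained regions of 2387 bp and 1804 bp, the first over its 5′ end. HSPA9, the mitochondrial HSP70, and HSPA14, a ribosome-associated one, each had a gained region over the 5′ end. HSPA2, a germ line HSP70, had 5 lost regions, at 69.9 kb to 96.1 kb, one of which covered the 5′ end of AKAP5. Of the 3 other HSP90 genes HSP90AB1, the constitutive cytosolic form, had a lost region at 16.5 kb, and NFKBIE had the nearest 5′ end, at 1338 bp.

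Of 18 other J-domain genes 11 had a gained region and 3 a lost one, with 1 gene counted in both. For each group in this paragraph the shares over all protein-coding genes are 30.6% for gained and 21.6% for lost regions. The gained region lay at the 5′ end of DNAJA1, DNAJA3, DNAJB9, DNAJB12 and DNAJC13. At DNAJC5 and DNAJB14 it covered the 5′ end of another gene, TPD52L2 and LAMTOR3 respectively. DNAJB12 had 6 gained regions, or 5 blocks with abutting ones joined, the most gained regions of the list on both counts, of which 1 began 47 bp inside the gene and the others lay at 32.1 kb to 93.5 kb, 1 of them over the 5′ end of DDIT4, a stress-induced inhibitor of mTOR signalling. Of 9 other BAG and nucleotide exchange genes 5 had a gained region, with BAG4, BAG5 and SIL1, an exchange factor for BiP, having it at the 5′ end, and 2 had a lost one. Of these 2, GRPEL2, an exchange factor of mitochondria, had a lost region and no gained one. That region lay outside the gene at 60.3 kb, with the 5′ end of IL17B nearest, at 1483 bp, unlike the lost regions inside BAG3. HSPBP1 had one of each, the lost one over the 5′ end of IL11 and the gained one over that of PPP6R1.

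The same shares over all protein-coding genes, 30.6% for gained and 21.6% for lost regions, stand beside each group here. Among 13 co-chaperones of HSP70 and HSP90 4 had a gained region and none a lost one. ST13, which binds HSP70, and CHORDC1, which binds HSP90, had it at the 5′ end. At STUB1 and TOMM34 the gained region covered the 5′ end of another gene, RAB40C and YWHAB respectively. Of 8 subunits of the cytosolic chaperonin 5 had a gained region, CCT4 at its 5′ end, and 1 of these 5, CCT2, also had a lost region, at 69.4 kb. The gained region at TCP1 covered the 5′ end of ACAT2, and the one at CCT3 covered that of SMG5. LONP1, the protease of the mitochondrial matrix, had 3 gained regions, 1 of them over its 5′ end, and was the one gene with a listed region among 5 genes of mitochondrial proteostasis. SERPINH1, the collagen chaperone HSP47, had 3 lost regions at 61.8 kb to 85.8 kb, all within GDPD5. Of 9 other small heat-shock protein genes 1 had a gained and 2 had lost regions, and of the 3 genes for polyubiquitin and the autophagy receptor SQSTM1 2 had gained and 2 had lost regions.

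The 15 genes with a gained region at the 5′ end had 16 such regions of 980 bp to 2942 bp, and in 14 genes the 5′ end lay inside one. At 10 of the 15 the same region also covered the 5′ end of another protein-coding gene, such as APTX beside DNAJA1, CORO7 beside DNAJA3, THAP5 beside DNAJB9, LSM1 beside BAG4 and MATR3 beside SIL1. There the lists do not tell which of the genes the gain of H3K27ac belongs to. HSPA5, HSPA9, DNAJB12, DNAJC13 and CHORDC1 shared theirs with no other protein-coding 5′ end.

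**Figure D5:**
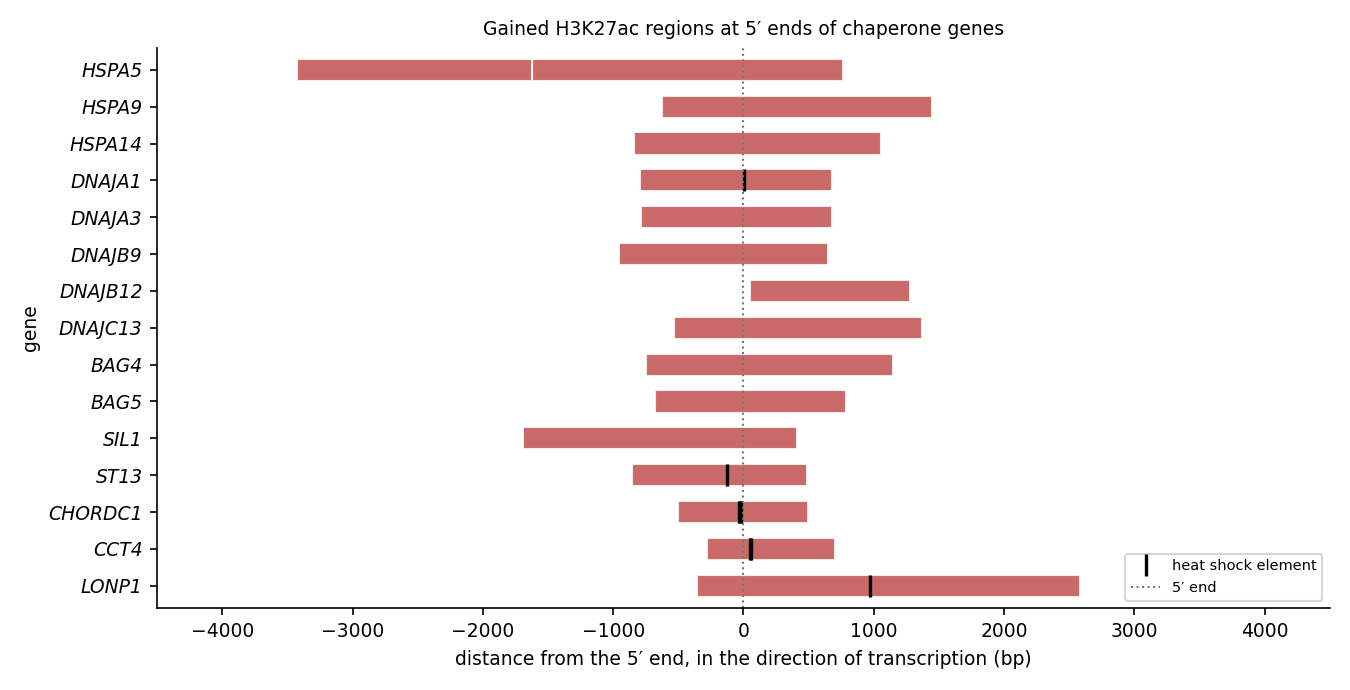
Gained H3K27ac regions (red bars) within 2500 bp of the 5′ ends of 15 chaperone genes, in bp from the 5′ end in the direction of transcription, with perfect heat shock elements inside them (black ticks). Elements are seen in DNAJA1, ST13, CHORDC1, CCT4 and LONP1, and in the first 4 of these they lie close to the 5′ end.

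Perfect heat shock elements lay inside 5 of these 16 regions, which is 31.2%, compared with 2.50% of the 1122 gained regions at 5′ ends of protein-coding genes. In the 250 bases before RefSeq starts, a different stretch from these regions, 6.94% of 72 other chaperone genes held the element. The share of 15315 protein-coding genes was 0.49%. CHORDC1 alone held an element both in such a stretch and in a gained region at its 5′ end. A link between the element and the gain was not tested. The elements (capitals) are shown with their positions from the annotated 5′ end, since none of the 3 listed regions at the 10 heat-shock protein genes held one. CHORDC1 held 3 overlapping elements, and CCT4 2 overlapping ones, of which 1 is shown.
DNAJA1, 3 to 15, chr9:33025268-33025296, plus strand: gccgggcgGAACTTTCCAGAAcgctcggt
ST13, −129 to −117, chr22:40856748-40856776, minus strand: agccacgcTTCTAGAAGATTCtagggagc
CHORDC1, −32 to −10, chr11:90223084-90223112, minus strand: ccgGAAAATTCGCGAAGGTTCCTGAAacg
CCT4, 53 to 65, chr2:61888598-61888626, minus strand: gcgccgctTTCTGGAAGGTTCgtgaaggc
LONP1, 975 to 987, chr19:5719577-5719605, minus strand: tcagacatGAAGTTTCTCGAAgggtgcag

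Genes with and without a heat shock element in the promoter were also set side by side. Of 75 protein-coding genes with a perfect element in the 250 bases before a RefSeq start 6 had a gained region at the 5′ end, which is 8%, compared with 6.80% of 15240 genes without one. The lost list gave 2.67% and 1.98%. HSPA8, HSP90AA1 and HSPD1 were among the 75 and had no region in either list, and of the 5 such genes among the other chaperones, HSPA6, HSP90AB1, DNAJB6, CHORDC1 and SERPINH1, CHORDC1 alone had a gained region at its 5′ end.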

How the data were processed

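H3K27ac ChIP-seq of LX-2 cells was processed by the authors before deposit. Reads were aligned to hg38 with Chromap, peaks were called in each library against input with MACS2 2.1.1.20160309 (deepTools 2.0 is also named in the submitters' processing notes), and MAnorm2 compared bins of peaks between 4 control and 4 OGTi libraries. The deposited lists hold chromosome, start and end. The threshold in their names is an adjusted p of 0.15, and the methods state a lower cut-off. Their read depth is unknown.

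Starts were converted to count from 1. Of 7130 regions, 11 outside chromosomes 1 to 22 and X were left out. Genes came from GENCODE release 44 and promoters from RefSeq (GRCh38.p14), which matched 10 of 10 members and 72 of 87 other genes. Distances run from the 5′ end to the nearest base of a region. Sequences were read with pysam 0.24.0 and searched on both strands, and the rules were tested on simulated data. Named were the 10 members, the nearest protein-coding gene of each region at them and the other chaperone genes with a region within 2500 bp of the 5′ end. The 2 other chaperone genes with most regions per direction were also named. Added after their values were seen were HSF1, HSF4, HSF5, HSPA1L, HSP90AB1, SERPINH1, GRPEL2, HSPBP1 and CCT2. DNAJC5, DNAJB14, STUB1, TOMM34, TCP1, CCT3, the other neighbouring genes and the genes with a promoter element were added likewise. The members and lists were chosen with earlier results of these data known. All values are counts or distances with no test.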

Additional observations from a re-analysis of the deposited data

How the results depend on the processing

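With a window of 50 kb or 10 kb, or gene bodies alone, 0 of the 10 genes had a gained region, from 0 regions, while BAG3 kept both lost regions. Within 2500 bp of the 5′ end alone the gained and the lost counts were both 0. With the 5′ ends of all transcripts 3 genes had gained regions, 2 regions in all, as DNAJB1 entered. Joining abutting lost regions, or merging regions within 1000 bp, left 1 lost region at BAG3, and counting HSPA1A with HSPA1B and HSPD1 with HSPE1 left 1 locus of 8 with a gained region. The other chaperone genes with a gained region numbered 20 of 87 with 10 kb, 19 in gene bodies and 15 within 2500 bp, and those with a lost region 7 with 50 kb, 2 with 10 kb, 1 in gene bodies and 0 within 2500 bp. With 1 mismatch 7 of 10 promoters and 1 of 3 regions held a heat shock element, and with 2 units 7 of 10 promoters and 3 of 3 regions did. The shares over all protein-coding genes ran from 6.41% to 32.6% for gained and from 1.96% to 23.3% for lost regions. They were 20.7% and 14% with 50 kb, 12.4% and 7.78% with 10 kb, and 10.9% and 6.63% in gene bodies. Among genes with a CpG-rich 5′ end the gained share was 33.5%. The 5′ end share among CpG-rich genes and the joining of abutting regions at single other chaperone genes were added after seeing the data. Of 52 recomputed counts of members, regions, other chaperone genes and elements, 27 stayed within 1.5 times. No paired analysis was possible because no value per replicate is given, and leaving out a library or using a stricter threshold was not run for the same reason.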
